A study of Mus musculus with 16 samples.

Results

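The voltage-gated sodium and calcium channels are described here through 36 genes for their subunits, 25 of calcium channels (symbols beginning Cacn) and 11 of sodium channels (Scn followed by a number and a or b), among 22180 genes tested. They were chosen by symbol, with earlier results of these data known. For a gene with more than 1 entry of its own on the array, which was so for Cacng2, Cacnb2 and Cacnb4, the entry with the highest mean was used. An entry shared by Scn9a and Gm13629 was not used. It differed from control EBs by 0.11 to 0.30 with no call. RNA from a mouse embryonic stem cell line, iGPA-Myo7a:mVenus, was measured on 16 Affymetrix whole-transcript arrays. In this line doxycycline (Dox) turns on Gfi1, Pou4f3 and Atoh1 from a transgene, and the promoter of Myo7a makes cells fluorescent. The control EBs were embryoid bodies of the line that received neither Dox nor retinoic acid (RA) and were not sorted, with 2 arrays at day 8 and 2 at day 12. The induced hair cell-like cells (iHCs) came from embryoid bodies of the same line given Dox alone (Dox iHCs) or Dox with RA (Dox+RA iHCs) from day 4, for 4 days (day 8) or 8 days (day 12), and were taken by flow cytometry for the mVenus signal, with 3 arrays in each of the 4 groups. Treatment and sort therefore cannot be told apart in any comparison with control EBs, and all groups derive from 1 cell line.

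Voltage-gated sodium channels carry the fast upstroke of the action potential: a pore subunit (the Scn genes ending in a) works with beta subunits (ending in b) that tune gating and bind neighbouring cells. A voltage-gated calcium channel has a pore subunit (the Cacna1 genes), of the L type (CaV1), the N, P/Q and R types (CaV2) or the low-threshold T type (CaV3), and the CaV1 and CaV2 pores are joined by an alpha2-delta subunit and a beta subunit that carry them to the membrane. In the inner ear, the L-type pore CaV1.3, encoded by Cacna1d, is the main channel through which depolarised hair cells admit calcium at the ribbon synapse to release glutamate. CaV2 channels serve the same purpose at most synapses of neurons. Most gamma subunit genes (Cacng) are known chiefly as helpers of AMPA-type glutamate receptors rather than of calcium channels.

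Stretches of 250 bases before the transcription start are shown for the genes of the largest difference from control EBs among alpha2-delta and CaV2 genes, Cacna2d2 and Cacna1b, and for Cacna1d of the ribbon synapse, which has a pair of annotated starts. They were taken from the RefSeq promoter table (GRCm38.p6) and run 5′ to 3′ on the gene's strand. Capitals mark CAGCTG, an E-box of the kind that basic helix-loop-helix factors such as Atoh1 bind.
Cacna2d2, chr9:107399630-107399879, plus strand: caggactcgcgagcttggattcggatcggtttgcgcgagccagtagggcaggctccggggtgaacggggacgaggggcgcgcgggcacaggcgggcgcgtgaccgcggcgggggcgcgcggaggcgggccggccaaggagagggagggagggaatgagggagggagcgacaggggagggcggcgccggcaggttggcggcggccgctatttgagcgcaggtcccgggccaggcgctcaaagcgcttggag
Cacna1b, chr2:24763153-24763402, minus strand: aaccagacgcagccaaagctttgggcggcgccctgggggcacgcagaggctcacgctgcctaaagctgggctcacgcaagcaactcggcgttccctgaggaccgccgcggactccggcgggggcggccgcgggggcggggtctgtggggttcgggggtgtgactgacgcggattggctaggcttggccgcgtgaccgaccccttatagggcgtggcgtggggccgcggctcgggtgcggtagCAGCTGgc
Cacna1d first start, chr14:30491157-30491406, minus strand: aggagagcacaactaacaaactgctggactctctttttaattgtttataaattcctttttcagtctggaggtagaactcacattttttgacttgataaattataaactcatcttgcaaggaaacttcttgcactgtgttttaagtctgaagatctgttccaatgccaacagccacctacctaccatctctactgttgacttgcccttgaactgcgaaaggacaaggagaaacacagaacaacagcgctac
Cacna1d second start, chr14:30353487-30353736, minus strand: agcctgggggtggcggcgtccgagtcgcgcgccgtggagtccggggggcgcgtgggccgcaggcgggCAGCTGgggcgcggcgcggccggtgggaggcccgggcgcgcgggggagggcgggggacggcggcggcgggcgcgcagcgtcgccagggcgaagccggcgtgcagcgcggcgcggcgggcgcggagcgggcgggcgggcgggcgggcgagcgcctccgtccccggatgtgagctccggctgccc
The motif begins 8 bases before the start of Cacna1b and 183 bases before the second start of Cacna1d, and these letters are absent from the other windows shown. The table holds 38 such windows for 28 of the 36 genes. CAGCTG, which reads the same on both strands, was present in 11 of the 38 windows (28.9%), those of Cacna1b, Cacna1d, Cacna1s, Cacna2d3, Cacnb2, Cacnb4, Cacng2, Cacng3, Scn7a and Scn11a, against 13% of all 32851 windows of the same length. Among the 12 windows of genes called higher in all 4 comparisons of iHCs with control EBs, 2 held it (16.7%). These windows cover 9 of the 13 such genes, as Cacna1a, Cacna1h, Cacng4 and Scn3b have none. A second E-box, CAGATG, searched on both strands, was present in 4 windows (10.5%, against 14.4% of all). The element RE1, bound by the repressor of neuronal genes REST, was searched on both strands by its left part TCAGCACC and its right part GGACAGCG. The right part occurred in 1 window, that of Cacnb1, against 0.992% of all windows. The left part was in 0 of the 38 windows, against 1.32% of all. These matches describe the letters only.

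Arrays of 1 group correlated at 0.982 to 0.995 over the 22180 genes and arrays of different groups at 0.871 to 0.991. The induced factors were higher in iHCs, with log2 differences from control EBs of 6.03 to 6.35 for Atoh1, 5.84 to 6.45 for Pou4f3 and 4.46 to 4.64 for Gfi1. Of 15 hair cell markers, 4 were these factors and Myo7a, whose promoter drove the sort, so that their rise was fixed by the design. Of the other 11, 7 were called higher in Dox iHCs at day 8 and 8 at day 12 (not Chrna9, Ocm or Pvalb, nor Tmc1 at day 8), and their mean log2 signal was 4.64 to 4.71 on the control EB arrays and 6.46 to 7.49 on the iHC arrays. Of 13 neuronal markers, 11 were called higher in Dox iHCs at day 8, with mean signals of 4.85 to 5.24 on control EB arrays and 6.49 to 7.39 on iHC arrays. The smooth muscle and mesenchyme list went the other way, with 8 of 11 markers lower in Dox iHCs at day 8 and mean signals of 8.34 to 8.78 on control EB arrays against 4.85 to 5.51 on iHC arrays. Of all genes 15.7% were called higher and 18.9% lower in Dox iHCs of day 8, and 19.2% higher at day 12. Detection calls were not part of the data used here. The highest group mean reached 5 on the log2 scale for 23 of the 36 channel genes. The other 13, Scn1a, Scn2a, Scn2b, Scn3a, Scn4b, Scn9a, Scn10a, Scn11a, Cacna1f, Cacna1s, Cacnb4, Cacng1 and Cacng3, had low signal in every group.

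The main question was which channel genes set iHCs apart from control EBs. A gene was called when its adjusted p in limma was under 0.05, with Benjamini-Hochberg adjustment over all 22180 genes. Differences are on the log2 scale with limma's standard error after ±. In Dox iHCs 15 of the 36 genes rose and 2 fell at day 8, where 15.7% of all genes were called higher and 18.9% lower. At day 12, 16 rose and 7 fell, against 19.2% and 21.7% of all genes. In Dox+RA iHCs 15 rose and 3 fell at day 8, against 19.6% and 22.0% of all genes, and 18 rose and 6 fell at day 12, against 22.4% higher and 22.4% lower. The share of channel genes that rose, 41.7% to 50%, was thus above the background in each comparison. The share that fell was 5.56% and 19.4% with Dox and 8.33% and 16.7% with Dox+RA, and that of Dox at day 12 was near its background. The median difference over the 36 genes was 0.23, 0.24, 0.26 and 0.29 in that order, and over all genes 0.02 to 0.07. Both iHC groups of a day were set against the same 2 control EB arrays, so their differences are not independent. A lower signal in these bulk samples may come from fewer cells with the transcript or from less of it per cell, and these cannot be told apart.

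**Figure D1:**
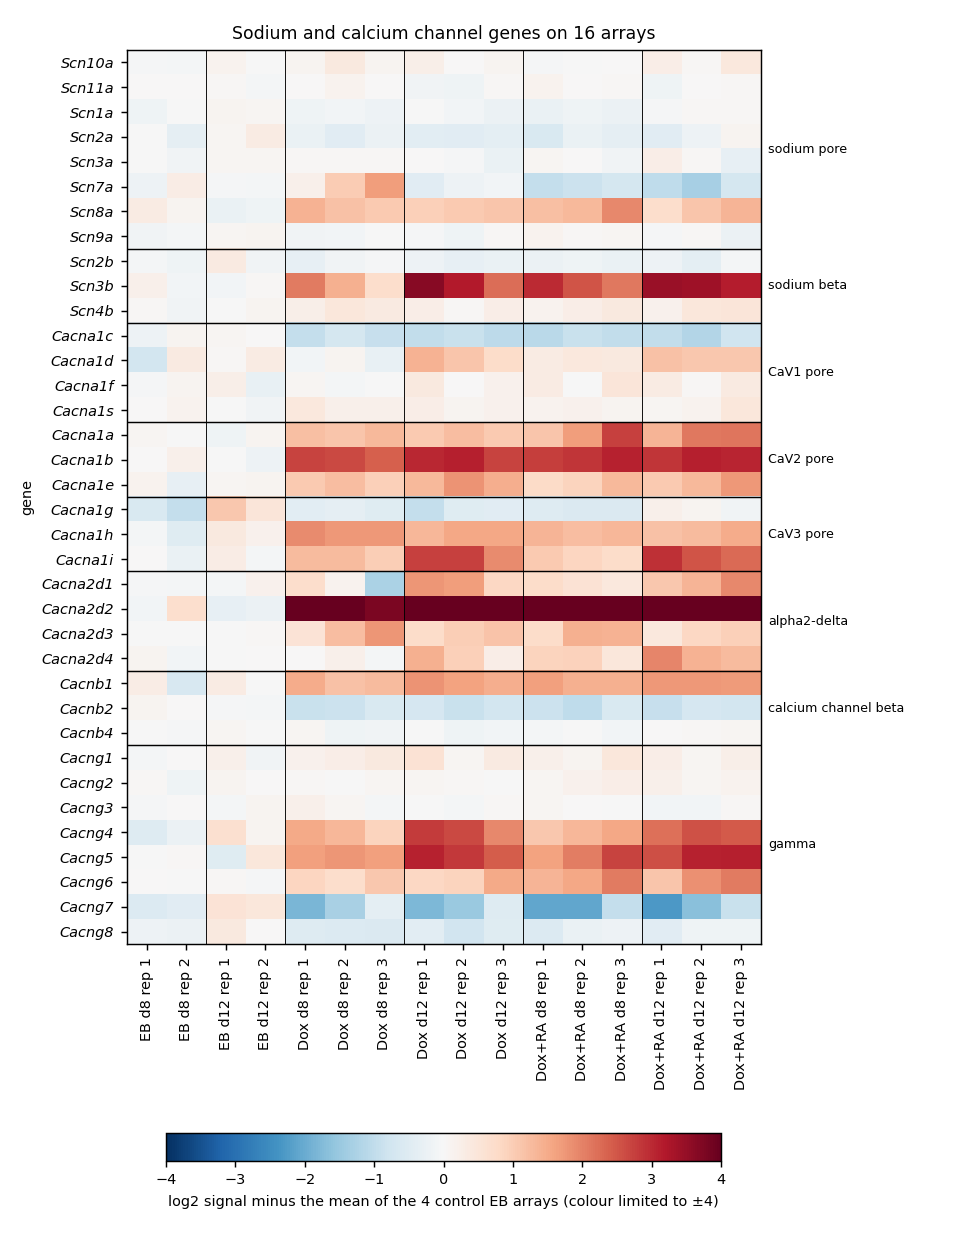
Log2 signal of the 36 channel genes (rows, by channel type) on each of the 16 arrays (columns, by group), as the difference from the mean of the 4 control EB arrays; colour runs from blue (lower) to red (higher) and is limited to ±4. The CaV2 pores, Cacna2d2, Scn3b, Cacng4 and Cacng5 are red on all 12 iHC arrays, and Cacna1c, Cacnb2 and Cacng7 are blue.

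Across the 4 comparisons 13 of 36 genes (36.1%, against 11.3% of all genes) were called higher in each: Scn8a, Scn3b, Cacna1a, Cacna1b, Cacna1e, Cacna1h, Cacna1i, Cacna2d2, Cacna2d3, Cacnb1, Cacng4, Cacng5 and Cacng6. Cacna1c and Cacnb2 were called lower in each, 5.56% of the genes against 14.5% of all. Scn7a was called in both directions. The 10 genes called in none of the 4 (27.8%, against 43.3% of all) were Scn1a, Scn3a, Scn9a, Scn10a, Scn11a, Cacna1f, Cacnb4, Cacng1, Cacng2 and Cacng3. Of these, Cacng2 alone had a group mean above 5.

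**Figure D2:**
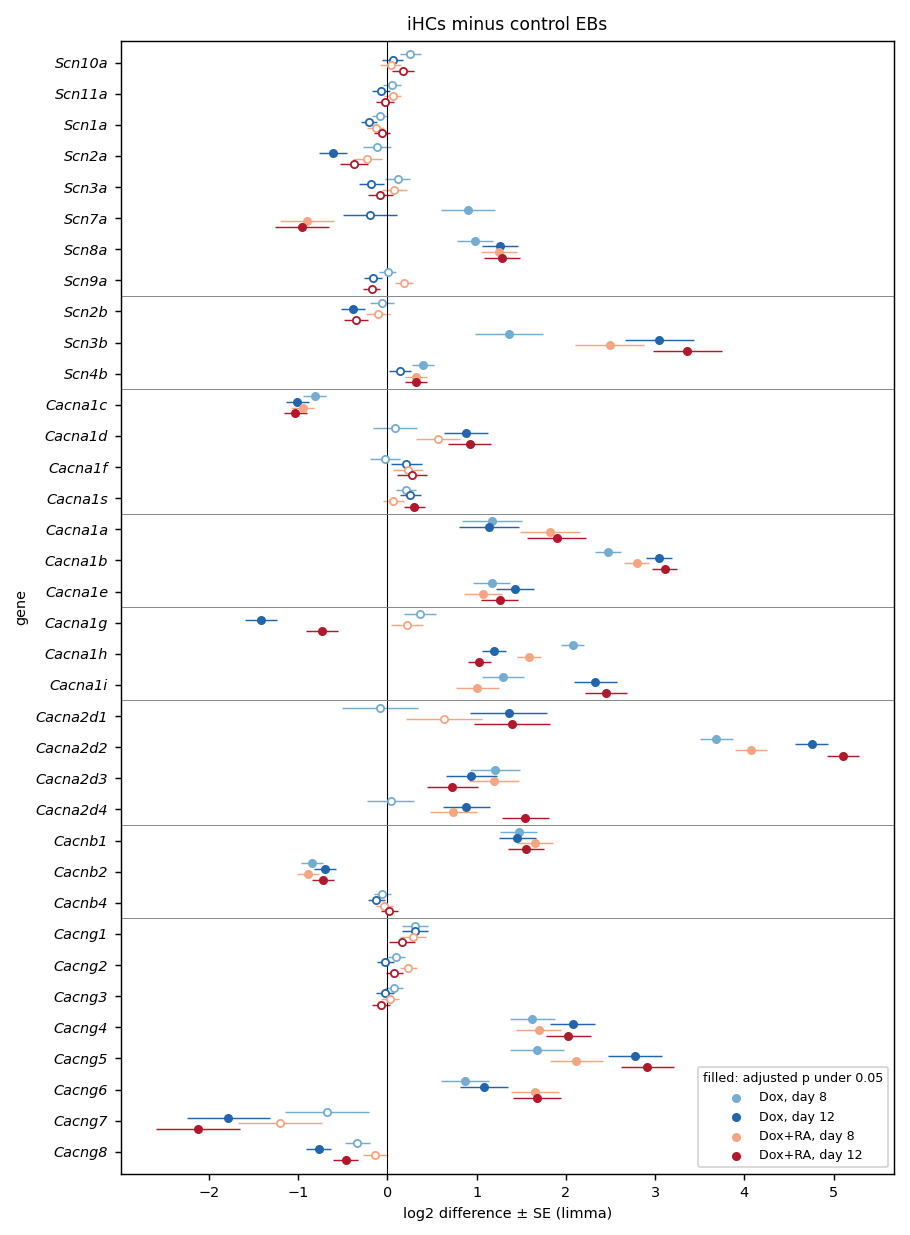
Log2 difference of each channel gene from the control EBs of the same day (x axis, with limma's standard error as bars) in the 4 iHC groups; filled points were called at an adjusted p under 0.05. Cacna2d2 lies farthest to the right, at 3.69 to 5.11, and Cacng7 farthest to the left at day 12, at -1.78 and -2.12.

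Among the sodium pores, Scn8a was called higher in iHCs throughout. Scn8a encodes NaV1.6, the pore of mature nodes and axon initial segments. The control EB arrays read 5.17 and 4.98 at day 8 and 4.58 and 4.68 at day 12. The Dox iHC arrays read 6.25, 6.02 and 5.89 at day 8 and 5.82, 5.90 and 5.96 at day 12, and the Dox+RA arrays 6.05, 6.15 and 6.77, then 5.56, 5.95 and 6.21. No iHC array overlapped the control EBs of its day. The differences were 0.98 ± 0.20 (adjusted p = 0.0013) and 1.26 ± 0.20 (0.0001) in Dox iHCs, and 1.25 ± 0.20 (0.00011) and 1.28 ± 0.20 (8e-05) in Dox+RA iHCs. Of the 8 sodium pore genes measured, 2 rose in Dox iHCs at day 8, and 1 rose and 1 fell in each of the other 3 comparisons. Of all genes 15.7% were called higher in the first, and 19.2% to 22.4% higher and 21.7% to 22.4% lower in the others. The counts of sodium pores are thus near or below the background. Scn2a, the pore of immature axons, fell in Dox iHCs at day 12 by 0.61 on the log2 scale (SE 0.16, adjusted p = 0.0054), from 4.02 ± 0.18 (SD, n = 2) to 3.41 ± 0.04 (n = 3), both low signals, and was not called without control EB replicate 2 of that day (-0.49, adjusted p = 0.082). In Dox+RA iHCs of day 12 its difference was -0.37 ± 0.16 (adjusted p = 0.069), and -0.43 (0.03) with the replicate number as a block. Scn1a and Scn3a of the brain, Scn9a of sensory neurons, and Scn10a and Scn11a of pain-sensing neurons differed from control EBs by -0.21 to 0.26 with no call.

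Scn7a, the pore-like gene of the sodium sensor NaX, was the 1 member that went both ways. Control EBs read 4.81 and 5.31 at day 8 and 4.94 and 4.93 at day 12. Dox iHCs of day 8 read 5.20, 6.03 and 6.66, a wide spread whose lowest array lay within the range of the controls. Dox+RA iHCs of the same day read 4.05, 4.14 and 4.28, below every control. At day 12 both iHC groups were below the controls, at 4.55, 4.78 and 4.89 with Dox and 3.97, 3.66 and 4.30 with Dox+RA. Dox iHCs were 0.90 ± 0.30 above the controls at day 8 (adjusted p = 0.029) and -0.20 ± 0.30 (0.66) at day 12, and Dox+RA iHCs fell by 0.90 (SE 0.30, 0.025) and by 0.96 (0.30, 0.017). The rise at day 8 was not called without control EB replicate 1 (0.65, adjusted p = 0.23), Dox replicate 2 (0.87, 0.07) or Dox replicate 3 (0.56, 0.11). The fall with RA at day 8 was not called without control EB replicate 2 (-0.65, 0.23), Dox+RA replicate 1 (-0.85, 0.065) or Dox+RA replicate 2 (-0.89, 0.055). At day 12 it was not called without control EB replicate 1 (-0.96, 0.074), control EB replicate 2 (-0.96, 0.077) or Dox+RA replicate 2 (-0.80, 0.065).

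The sodium channel beta subunit Scn3b had the largest rise of any sodium channel gene. It encodes beta3, a subunit of developing and adult neurons that tunes the inactivation of the pore. Control EBs read 5.19 and 4.88 at day 8 and 4.89 and 5.05 at day 12. Dox iHCs read 7.08, 6.43 and 5.70 at day 8 and 8.65, 8.18 and 7.22 at day 12. Dox+RA iHCs read 7.98, 7.51 and 7.10 at day 8 and 8.47, 8.38 and 8.14 at day 12. All 12 iHC arrays were above all 4 control arrays, and replicate 3 was the lowest of each iHC group. The differences were 1.36 ± 0.39 (adjusted p = 0.012) and 3.05 ± 0.39 (1.1e-05) in Dox iHCs, and 2.49 ± 0.39 (7.9e-05) and 3.36 ± 0.39 (3.7e-06) in Dox+RA iHCs, the last a 10.3-fold difference. The first was not called without control EB replicate 2 (1.21, adjusted p = 0.10) or Dox replicate 1 (1.02, 0.054). Scn4b, whose beta4 protein assists resurgent current, rose at low signal in 3 comparisons, from 3.71 ± 0.15 (SD, n = 2) to 4.11 ± 0.11 (n = 3) in Dox iHCs of day 8, a difference of 0.40 ± 0.12 (adjusted p = 0.019). That call was lost without control EB replicate 2 (0.30, 0.20) or Dox replicate 2 (0.35, 0.068). Its differences of 0.32 (adjusted p = 0.049 at day 8 and 0.045 at day 12) in Dox+RA iHCs were lost with the replicate block (0.28, adjusted p = 0.072 and 0.066) and without any of 12 arrays at day 8 (0.21 to 0.42 over all alternatives) and any of 7 at day 12 (0.25 to 0.42). Scn2b, which encodes beta2, fell in Dox iHCs at day 12 by 0.38 (SE 0.14, adjusted p = 0.035), from 3.90 ± 0.35 (SD, n = 2) to 3.51 ± 0.06 (n = 3), a fall that was 0.13 without control EB replicate 1 (adjusted p = 0.53) and not called without Dox replicate 2 (-0.35, 0.091) or Dox replicate 3 (-0.39, 0.06). With the block it also fell in Dox+RA iHCs of day 12 (-0.38, adjusted p = 0.03, against -0.35 and 0.051 without).

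**Figure D3:**
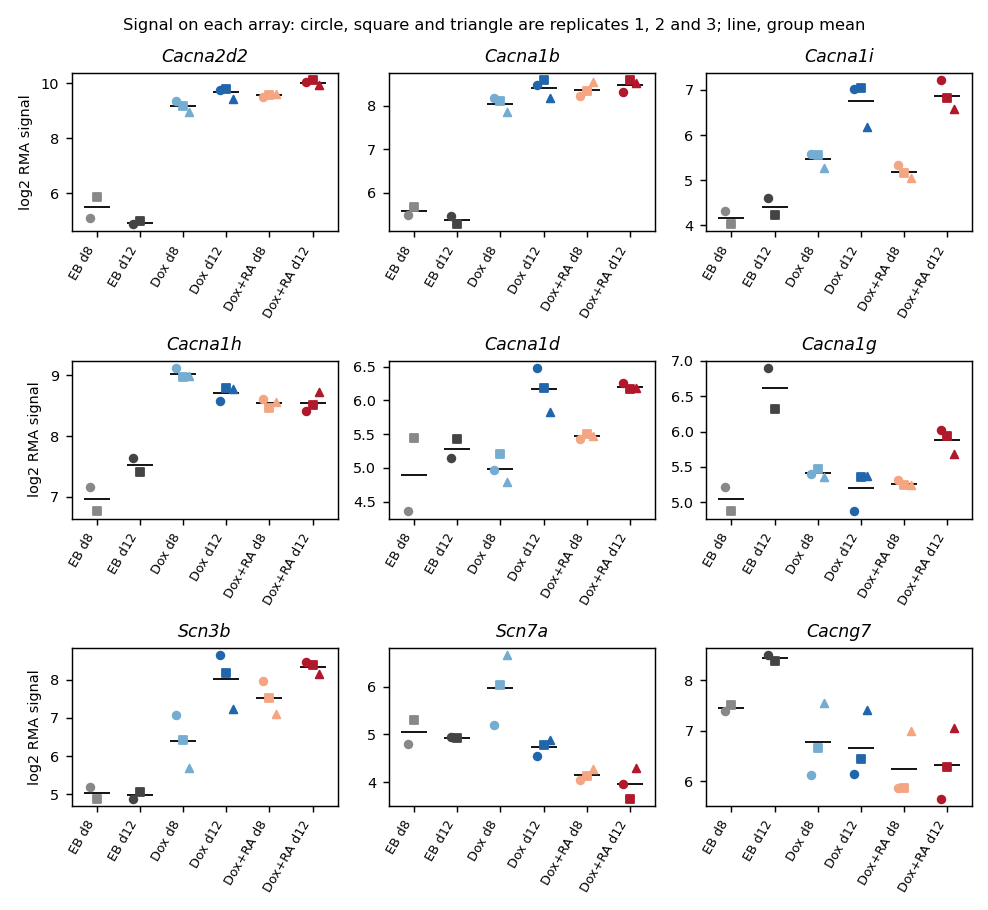
Log2 signal of selected channel genes on every array (points) by group, with the group mean as a bar. Cacna1d separates from the control EBs at day 12 but not at day 8, whereas Cacna2d2 and Cacna1b are separate at both days.

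Cacna1d, the pore of the hair cell ribbon synapse, was called higher in iHCs at day 12 and not at day 8. The control EBs of day 8 read 4.36 and 5.44, farther apart than the 3 arrays of either iHC group of that day, and those of day 12 read 5.14 and 5.42. Dox iHCs read 4.97, 5.21 and 4.78 at day 8 and 6.48, 6.18 and 5.82 at day 12. Dox+RA iHCs read 5.43, 5.50 and 5.47 at day 8 and 6.26, 6.17 and 6.18 at day 12. The 6 iHC arrays of day 12 were above all 4 control arrays, whereas those of day 8 overlapped the day 8 controls. At day 12 the differences were 0.88 ± 0.24 in Dox iHCs (adjusted p = 0.0084), or 1.84-fold, and 0.92 ± 0.24 in Dox+RA iHCs (0.0059). Without control EB replicate 1 of day 12 they were 0.74 (adjusted p = 0.089) and 0.78 (0.067). At day 8 they were 0.09 ± 0.24 (adjusted p = 0.84; 95% interval -0.43 to 0.61) and 0.57 ± 0.24 (0.077; 0.05 to 1.09). These day 8 values rest on which control is kept: without control EB replicate 1 the Dox difference was -0.46 (adjusted p = 0.12), without replicate 2 it was 0.63 (0.04), and the Dox+RA difference without replicate 2 was 1.11 (0.00088). Without Dox replicate 2 the Dox difference was -0.02. With the replicate block the Dox+RA difference at day 8 was called (0.64, adjusted p = 0.033).

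Of the other L-type pores, Cacna1c fell in iHCs in all 4 comparisons. It encodes CaV1.2, the main L-type pore of heart and smooth muscle and of many neurons. Control EBs read 6.12 and 6.45 at day 8 and 6.40 and 6.33 at day 12. Dox iHCs read 5.38, 5.63 and 5.40, then 5.34, 5.45 and 5.28, and Dox+RA iHCs 5.24, 5.43 and 5.35, then 5.34, 5.14 and 5.53. Every iHC array was below every control array. The differences were -0.81 ± 0.13 (adjusted p = 0.00014) and -1.01 ± 0.13 (1.2e-05) with Dox, and -0.95 ± 0.13 (2.3e-05) and -1.03 ± 0.13 (8.8e-06) with Dox+RA. The smooth muscle and mesenchyme markers fell with it, 8 of 11 in both Dox comparisons and 9 of 11 in both Dox+RA comparisons, for example Acta2 by 3.62 and Postn by 6.11 in Dox iHCs of day 8. Of 15 heart and skeletal muscle markers 5 fell and 2 rose in Dox iHCs of day 8, with mean signals of 5.86 to 6.22 on the day 8 control arrays and 5.20 to 5.50 on the day 8 iHC arrays, and at day 12 the ranges overlapped, at 5.36 to 5.44 and 5.11 to 5.49. Tnnt2 and Myl7 fell in all 4 comparisons, whereas Nppa rose in all 4 (0.97 to 1.44) and Ckm in all but Dox iHCs of day 8 (2.13 to 3.03). Of all genes 18.9% and 21.7% were called lower with Dox and 22.0% and 22.4% with Dox+RA. In Dox iHCs of day 8, 15.7% were called higher. The part of mesenchyme and muscle cells in the fall of Cacna1c was not tested. Cacna1s, the pore of skeletal muscle, differed by 0.07 to 0.30, with 1 call, in Dox+RA iHCs at day 12 (0.30 ± 0.12, adjusted p = 0.045), which was lost with the block (0.29, 0.063) and without any of 10 arrays (0.19 to 0.38 over all alternatives). Cacna1f, the L-type pore of photoreceptor ribbon synapses, stood between 4.02 and 4.31 in all group means and differed by -0.03 to 0.27 with no call.

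All 3 CaV2 pores rose in all 4 comparisons, as did 11.3% of all genes. Cacna1b, which encodes the N-type pore of presynaptic terminals, read 5.48 and 5.67 in control EBs at day 8 and 5.46 and 5.28 at day 12. Dox iHCs read 8.18, 8.11 and 7.85, then 8.49, 8.58 and 8.18, and Dox+RA iHCs 8.23, 8.34 and 8.54, then 8.32, 8.58 and 8.53. The groups were separated by more than 2 log2 units. The differences were 2.47 ± 0.14 (adjusted p = 6.7e-09) and 3.05 ± 0.14 (4.8e-10) in Dox iHCs, and 2.79 ± 0.14 (1.3e-09) and 3.11 ± 0.14 (3.2e-10) in Dox+RA iHCs, or 5.55-fold to 8.62-fold.

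Cacna1a encodes the P/Q-type pore and read 4.96 and 4.85 in day 8 and 4.72 and 4.98 in day 12 control EBs. Dox iHCs read 6.09, 5.98 and 6.17, then 5.92, 6.12 and 5.93. Dox+RA iHCs read 6.0, 6.57 and 7.63, then 6.24, 6.99 and 7.02, a wider spread with replicate 1 the lowest at both days. The differences were 1.17 ± 0.33 (adjusted p = 0.012), 1.14 ± 0.33 (0.012), 1.82 ± 0.33 (0.00035) and 1.90 ± 0.33 (0.00022), in the order Dox day 8, Dox day 12, Dox+RA day 8 and Dox+RA day 12, which also holds below. The first was not called without control EB replicate 2 of day 8 (1.12, 0.08) and the second without control EB replicate 1 of day 12 (1.01, 0.092). Cacna1e encodes the R-type pore and read 4.56, 4.11, 4.51 and 4.53 in control EBs. Dox iHCs read 5.47, 5.65 and 5.38, then 5.71, 6.23 and 5.89, and Dox+RA iHCs 5.18, 5.31 and 5.72, then 5.46, 5.72 and 6.15, all above the controls. The differences were 1.17 ± 0.21 (adjusted p = 0.00042), 1.43 ± 0.21 (5e-05), 1.07 ± 0.21 (0.00066) and 1.26 ± 0.21 (0.00014). Neuronal markers rose beside the CaV2 pores, 11, 9, 10 and 7 of 13 in the same order, for example Syt1 by 4.00 to 4.71 and Map2 by 3.11 to 3.89, while Tubb3 fell at day 12 (-0.61 and -0.90), Isl1 rose at day 8 (2.41 and 1.08) and fell in Dox+RA iHCs of day 12 (-1.39, adjusted p = 0.0036), and Dcx differed by -0.13 to 0.29 with no call. Stmn2 rose in Dox iHCs of day 8 (0.77) and differed by -0.40 to 0.44 elsewhere with no call. Of all genes 15.7%, 19.2%, 19.6% and 22.4% were called higher in the same order of comparisons. The part of neuron-like cells in the rise of the CaV2 pores was not tested.

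The 3 T-type pores did not move together. Cacna1h (CaV3.2) and Cacna1i (CaV3.3) rose in all 4 comparisons, whereas Cacna1g (CaV3.1) fell at day 12. For Cacna1h the control EBs read 7.16 and 6.76, then 7.64 and 7.40. Dox iHCs read 9.13, 8.98 and 8.99, then 8.57, 8.79 and 8.78, and Dox+RA iHCs 8.61, 8.46 and 8.56, then 8.42, 8.51 and 8.73. Every iHC array was above every control array, and the differences were 2.08 ± 0.13 (adjusted p = 1.6e-08), 1.19 ± 0.13 (2.8e-06), 1.59 ± 0.13 (1.5e-07) and 1.03 ± 0.13 (1.1e-05), smaller at day 12. Cacna1i read 4.31 and 4.03, then 4.60 and 4.23 in control EBs. Dox iHCs read 5.57, 5.56 and 5.27, then 7.02, 7.04 and 6.17, and Dox+RA iHCs 5.34, 5.16 and 5.04, then 7.21, 6.81 and 6.57. Its differences were larger at day 12, with 1.30 ± 0.24 (adjusted p = 0.00053), 2.33 ± 0.24 (1.3e-06), 1.01 ± 0.24 (0.0029) and 2.45 ± 0.24 (6.7e-07).

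Cacna1g read 5.22 and 4.87 in control EBs of day 8 and 6.90 and 6.32 at day 12. Dox iHCs read 5.40, 5.47 and 5.36, then 4.87, 5.35 and 5.37, and Dox+RA iHCs 5.31, 5.24 and 5.24, then 6.03, 5.94 and 5.68. The iHC arrays were above the day 8 controls and below the day 12 controls. The differences were 0.36 ± 0.18 (adjusted p = 0.14) and 0.22 ± 0.18 (0.36) at day 8, with no call, and -1.41 ± 0.18 (1e-05) and -0.73 ± 0.18 (0.0032) at day 12. The last was -0.44 (0.092) without control EB replicate 1 of day 12.

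The alpha2-delta genes included the largest rise of all 36 genes in each comparison, that of Cacna2d2. All 4 rose in both comparisons of day 12, and 2 of 4 with Dox and 3 of 4 with Dox+RA at day 8. Of all genes 19.2% and 22.4% were called higher at day 12, and 15.7% and 19.6% at day 8. Cacna2d2 encodes alpha2-delta-2, an auxiliary subunit that binds gabapentin and that hair cells use with CaV1.3. Control EBs read 5.10 and 5.87 at day 8 and 4.87 and 4.97 at day 12. Dox iHCs read 9.35, 9.19 and 8.96, then 9.78, 9.81 and 9.44, and Dox+RA iHCs 9.51, 9.56 and 9.61, then 10.04, 10.11 and 9.94. The iHC arrays stood over 3 log2 units above the highest control. The differences were 3.69 ± 0.18 (adjusted p = 1.1e-09), 4.75 ± 0.18 (6.9e-11), 4.08 ± 0.18 (2.8e-10) and 5.11 ± 0.18 (3e-11), or 12.9-fold, 27-fold, 16.9-fold and 34.4-fold.

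Cacna2d1, the broadly expressed alpha2-delta-1 of muscle and neurons, read 6.67, 6.65, 6.65 and 6.90 in control EBs. Dox iHCs of day 8 read 7.43, 6.85 and 5.44, so that their arrays lay on both sides of the controls. The other iHC groups were above the controls, at 8.49, 8.38 and 7.53 with Dox at day 12, and 7.46, 7.29 and 7.13, then 7.79, 8.08 and 8.65 with Dox+RA. The differences were -0.09 ± 0.43 (adjusted p = 0.91), 1.36 ± 0.43 (0.018), 0.63 ± 0.43 (0.27) and 1.4 ± 0.43 (0.015). The second was not called without control EB replicate 1 (1.23, 0.11) or 2 (1.49, 0.058) of day 12, Dox replicate 1 (1.18, 0.063) or Dox replicate 2 (1.24, 0.057), and the fourth not without control EB replicate 1 of day 12 (1.27, 0.093) or Dox+RA replicate 3 (1.16, 0.056). Cacna2d3, whose alpha2-delta-3 serves synapses of the auditory pathway, read 4.61 to 4.67 over the 4 control arrays. Dox iHCs read 5.19, 5.88 and 6.40, then 5.36, 5.61 and 5.79, and Dox+RA iHCs 5.36, 6.06 and 6.03, then 5.06, 5.47 and 5.59, with replicate 1 the lowest in each group. Its differences were 1.20 ± 0.28 (adjusted p = 0.0034), 0.94 ± 0.28 (0.014), 1.20 ± 0.28 (0.0028) and 0.73 ± 0.28 (0.047). The second was lost without control EB replicate 1 (0.91, 0.076) or 2 (0.97, 0.061) of day 12, and the fourth under 11 of 25 alternatives, 10 of them the loss of 1 array (0.58 to 0.89 over all alternatives).

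Cacna2d4, the alpha2-delta-4 of photoreceptors, read 4.35, 4.14, 4.21 and 4.24 in control EBs. Dox iHCs read 4.26, 4.44 and 4.16, then 5.65, 5.19 and 4.50, and Dox+RA iHCs 5.12, 5.15 and 4.69, then 6.19, 5.62 and 5.51. Only the Dox iHCs of day 8 overlapped the control EBs of their day. The differences were 0.04 ± 0.27 (adjusted p = 0.94), 0.89 ± 0.27 (0.014), 0.74 ± 0.27 (0.036) and 1.55 ± 0.27 (0.00019). The second was lost without control EB replicate 1 (0.87, 0.071) or 2 (0.90, 0.065) of day 12 or Dox replicate 1 (0.62, 0.06). The third was lost without control EB replicate 1 (0.85, 0.072) or 2 (0.64, 0.20) of day 8, Dox+RA replicate 1 (0.67, 0.093) or Dox+RA replicate 2 (0.66, 0.10), and with median centring (0.70) or quantile normalization (0.69).

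The beta subunits of calcium channels, which bind the pore inside the cell and take it to the membrane, went opposite ways. Cacnb1, the beta subunit of skeletal muscle and brain, rose. Control EBs read 5.88 and 4.94, then 5.91 and 5.57. Dox iHCs read 7.06, 6.75 and 6.83, then 7.37, 7.19 and 7.04, and Dox+RA iHCs 7.20, 7.0 and 7.0, then 7.30, 7.31 and 7.26, all above the controls. The differences were 1.47 ± 0.20 (adjusted p = 4e-05), 1.46 ± 0.20 (3.1e-05), 1.66 ± 0.20 (8.3e-06) and 1.55 ± 0.20 (1.4e-05). Cacnb2, which is needed for CaV1.3 current in inner hair cells and is the main beta subunit of heart, fell from 5.66 ± 0.06 (SD, n = 2) and 5.55 ± 0.02 in control EBs of day 8 and day 12 to 4.77 to 4.85 in the 4 iHC means (n = 3 each). Every iHC array was below every control array, and its differences were -0.84 ± 0.13 (adjusted p = 7.8e-05), -0.70 ± 0.13 (0.0003), -0.89 ± 0.13 (3.2e-05) and -0.72 ± 0.13 (0.00021). Cacnb2 has a second, dimmer entry on the array (3.74 to 4.32), which differed by -0.14, 0.00, -0.11 and 0.09 with no call, and the mean of both entries gave -0.49, -0.35, -0.50 and -0.31 (adjusted p = 0.0033, 0.023, 0.0023 and 0.037). The part of the mesenchyme cells, whose markers given beside Cacna1c fell in the same comparisons, was not tested. Cacnb4, a beta subunit of brain, stood at 3.70 to 3.85 in all group means and was not called.

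Gamma subunit genes split by member. Cacng4, Cacng5 and Cacng6 rose in all 4 comparisons, Cacng7 and Cacng8 fell at day 12, and Cacng1, Cacng2 and Cacng3 were not called. In the mouse, Cacng1, Cacng4 and Cacng5 are neighbours with no other coding gene between them, as are Cacng7, Cacng8 and Cacng6 (RefSeq, GRCm38.p6). In the first trio Cacng4 and Cacng5 shared their calls and Cacng1 did not, and in the second Cacng7 and Cacng8 shared theirs and Cacng6 did not. Cacng4, a regulator of AMPA receptors, read 5.43 and 5.73, then 6.59 and 6.06 in control EBs. Dox iHCs read 7.48, 7.28 and 6.85, then 8.75, 8.59 and 7.86, and Dox+RA iHCs 7.04, 7.26 and 7.51, then 8.16, 8.48 and 8.41. No group overlapped the controls of its day, and the differences were 1.63 ± 0.25 (adjusted p = 0.00011), 2.08 ± 0.25 (7e-06), 1.70 ± 0.25 (5.1e-05) and 2.03 ± 0.25 (7.8e-06). Cacng5, of the same group of regulators, read 5.01 and 5.07, then 4.56 and 5.50 in control EBs. Dox iHCs read 6.68, 6.80 and 6.66, then 8.10, 7.86 and 7.46, and Dox+RA iHCs 6.64, 7.08 and 7.75, then 7.61, 8.11 and 8.13. They lay above all controls, by 1.68 ± 0.30 (adjusted p = 0.00039), 2.77 ± 0.30 (2.2e-06), 2.12 ± 0.30 (3.2e-05) and 2.91 ± 0.30 (1.1e-06) in the means.

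Cacng6, which resembles the skeletal muscle gamma subunit Cacng1, read 5.33, 5.31, 5.37 and 5.25 in control EBs. Dox iHCs read 6.19, 6.01 and 6.39, then 6.15, 6.21 and 6.82, and Dox+RA iHCs 6.69, 6.86 and 7.39, then 6.41, 7.14 and 7.40, with replicate 3 the highest each time. The differences were 0.87 ± 0.27 (adjusted p = 0.018), 1.08 ± 0.27 (0.0037), 1.65 ± 0.27 (0.00011) and 1.68 ± 0.27 (9e-05). The first was lost without control EB replicate 1 (0.88, 0.075) or 2 (0.86, 0.093) of day 8 or Dox replicate 3 (0.78, 0.059). Cacng7, another AMPA receptor regulator, read 7.38 and 7.5, then 8.50 and 8.39 in control EBs. Dox iHCs read 6.12, 6.66 and 7.54, then 6.14, 6.45 and 7.42, and Dox+RA iHCs 5.87, 5.87 and 6.99, then 5.65, 6.27 and 7.05. Replicate 3 was again the highest of each iHC group, and at day 8 with Dox it exceeded the controls. The differences were -0.67 ± 0.47 (adjusted p = 0.32), -1.78 ± 0.47 (0.0062), -1.20 ± 0.47 (0.052) and -2.12 ± 0.47 (0.0016). With the replicate number as a block the day 8 differences were called too, at -1.05 ± 0.14 (adjusted p = 3.5e-05) and -1.58 ± 0.14 (4.5e-07). Cacng8, the AMPA receptor regulator of hippocampus, fell at day 12 from 5.44 ± 0.25 (SD, n = 2) to 4.68 ± 0.17 with Dox (-0.77 ± 0.14, adjusted p = 0.00036) and 4.98 ± 0.17 with Dox+RA (n = 3 each; -0.46 ± 0.14, 0.014). The latter was lost without control EB replicate 1 of day 12 (-0.29, 0.20) or Dox+RA replicate 1 (-0.37, 0.059).

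Over time, from day 8 to day 12, 7 of the 36 genes rose and 1 fell in Dox iHCs, against 3.39% and 4.66% of all genes. Cacna1d rose by 1.18 ± 0.22 (adjusted p = 0.0053), Cacna1i by 1.28 ± 0.21 (0.0035), Cacna2d1 by 1.56 ± 0.38 (0.023), Cacna2d4 by 0.83 ± 0.24 (0.045), Cacng4 by 1.20 ± 0.22 (0.0056), Cacng5 by 1.09 ± 0.27 (0.022) and Scn3b by 1.61 ± 0.34 (0.011). Scn7a fell by 1.22 (SE 0.27, adjusted p = 0.013). The arrays given above did not overlap between the days for any of these genes. The gap was narrow for Cacna2d4, from 4.44 at most at day 8 to 4.50 at least at day 12. The share of all genes without overlap was not computed. In these genes the day 8 arrays were not alike: replicate 3 was the lowest for Scn3b and Cacna2d1 and the highest for Scn7a. Without it the changes were 1.26 for Scn3b (adjusted p = 0.055), 0.99 for Cacna2d1 (0.066) and -0.87 for Scn7a (0.052), and 3 genes were called in all, as without Dox replicate 1 of day 12; 10 were called without Dox replicate 3 of day 12. Counts were 4 without day 8 replicate 2 and 5 without day 12 replicate 2. With the block Cacna2d2 also rose (0.51, adjusted p = 0.031, against 0.07 without).

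Other single arrays also decided calls over time in Dox iHCs. Cacna2d1 was lost without day 8 replicate 2 (1.70, adjusted p = 0.053), day 12 replicate 1 (1.38, 0.11) or day 12 replicate 2 (1.44, 0.084). Cacng5 was lost without day 8 replicate 2 (1.14, 0.065) or 3 (1.07, 0.075), or day 12 replicate 1 (0.95, 0.11) or 2 (1.06, 0.072). Scn3b was lost without day 12 replicate 1 (1.30, 0.064), and Scn7a without day 8 replicate 2 (-1.19, 0.057) or day 12 replicate 1 (-1.12, 0.066). Cacna2d4 lost its call under 15 of 25 alternatives, with changes of 0.56 to 1.14. The calls of Cacna1d, Cacna1i and Cacng4 were kept without any 1 array. A fit on the 6 Dox arrays alone called 3 genes and not Cacng4 (1.20, adjusted p = 0.056).

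**Figure D4:**
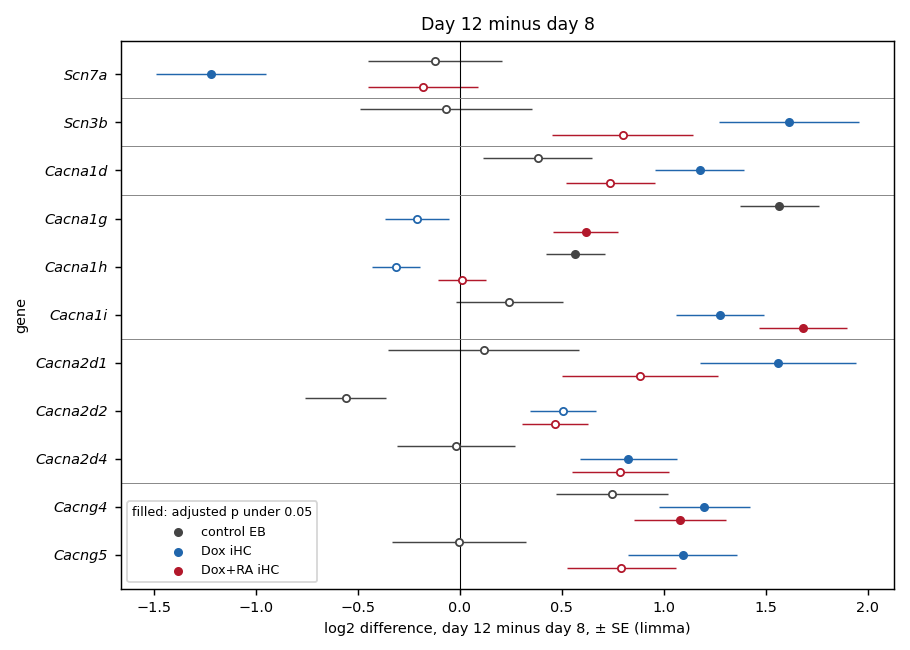
Log2 difference of day 12 from day 8 (x axis, with limma's standard error) for the 11 channel genes called in a time comparison or in its difference from control EBs, in control EBs and both kinds of iHCs; filled points were called at an adjusted p under 0.05. Cacna1g rose by 1.57 in control EBs and changed by -0.21 in Dox iHCs, while Cacna1i rose in both kinds of iHCs.

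In Dox+RA iHCs 3 genes were called over time, all higher, against 1.78% of all genes higher and 2.61% lower. These were Cacna1i (1.68 ± 0.21, adjusted p = 0.00082), Cacng4 (1.08 ± 0.22, 0.015) and Cacna1g (0.62 ± 0.16, 0.04). Cacna1g was lost without any of 6 arrays (0.54 to 0.72 over all alternatives), and Cacng4 without day 8 replicate 1 (0.97, 0.051) or 2 (1.08, 0.058) or day 12 replicate 2 (1.01, 0.075). Cacna1d changed by 0.74 ± 0.22 (adjusted p = 0.074), all 3 arrays of day 12 being above those of day 8. With the replicate block 6 genes were called, with Cacna1d (adjusted p = 0.032), Cacna2d4 (0.79, 0.0072) and Scn3b (0.80, 0.014) in addition. The share of all genes called with the block was not computed. Without control EB replicate 1 or 2 of day 8, or Dox replicate 3 of day 12, which shape only the shared spread here, 5 genes were called, with Cacna1d among them (0.74, adjusted p = 0.015, 0.015 and 0.048). The count was 1 without Dox+RA replicate 1 or 2 of day 8 or replicate 2 of day 12.

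In control EBs Cacna1g rose by 1.57 ± 0.19 (adjusted p = 0.00021) and Cacna1h by 0.57 ± 0.14 (0.041), the 2 of 36 genes called, against 2.33% of all genes higher and 1.42% lower. The call of Cacna1h was lost under 12 of 25 alternatives, among them the loss of control EB replicate 2 of day 8 (0.37, adjusted p = 0.50) or of replicate 1 (0.45, 0.38) or 2 (0.69, 0.059) of day 12, so that the count was 1 there; it was 4 without control EB replicate 1 of day 8. Cacna1d changed by 0.38 ± 0.27 (0.61), and by -0.16 without control EB replicate 1 of day 8. With the block Cacng7 rose in control EBs (1.0 ± 0.15, adjusted p = 0.0011, against 0.41 without).

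Whether time changes differed between iHCs and control EBs was tested as an interaction. For Dox iHCs 1 gene was called higher and 2 lower, against 1.03% and 1.81% of all genes. Cacna2d2 changed by 1.07 ± 0.26 more in Dox iHCs (adjusted p = 0.038), Cacna1g by -1.78 ± 0.25 (0.0013) and Cacna1h by -0.88 ± 0.19 (0.019). For Dox+RA iHCs Cacna1i (1.44 ± 0.34, adjusted p = 0.035) and Cacna2d2 (1.03 ± 0.26, 0.046) were called, both higher, against 0.956% of all genes higher and 1.67% lower. The day 8 control arrays of Cacna2d2 stood apart, and without replicate 2 its values were 0.68 (adjusted p = 0.16) and 0.64 (0.22). It lost its call under 12 and 14 of 25 alternatives, and Cacna1i under 8, each the loss of 1 array (1.26 to 1.62). Cacna1h was lost without control EB replicate 2 of day 8 (-0.68, 0.12) or replicate 1 of day 12 (-0.76, 0.11), so that 1 gene was called for Dox iHCs, against 5 without Dox replicate 1 of day 8 and 6 without Dox replicate 3 of day 12. For Dox+RA iHCs the count was 0 without control EB replicate 2 of day 8, control EB replicate 1 of day 12, or Dox+RA replicate 2 or 3 of day 8 or 1 or 2 of day 12. With the block 6 and 4 genes were called, adding Cacna1i (1.03, adjusted p = 0.0089), Scn3b (1.68, 0.0035) and Cacng7 (-1.11, 0.0045) for Dox iHCs, and Cacna1g (-0.95, 0.047) and Cacng7 (-0.92, 0.015) for Dox+RA iHCs. The share of all genes called with the block was not computed. For Cacna1d the interaction with Dox was 0.79 ± 0.34 (adjusted p = 0.30), and 1.34 (0.016) without control EB replicate 1 of day 8.

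The effect of adding RA to Dox was read from Dox+RA minus Dox iHCs within a day. At day 8, 2 of the 36 genes were called, both lower with RA, against 2.05% of all genes higher and 2.89% lower. Scn7a fell by 1.80 (SE 0.27, adjusted p = 0.0017), from 5.20, 6.03 and 6.66 to 4.05, 4.14 and 4.28, with no overlap. Cacna1h fell by 0.49 (SE 0.12, adjusted p = 0.027), from 9.13, 8.98 and 8.99 to 8.61, 8.46 and 8.56, also with no overlap, but its call was lost without any 1 of these 6 arrays (-0.44 to -0.52, adjusted p of 0.058 to 0.10). At an unadjusted p under 0.05, 7 genes were higher and 2 lower, and the share of all genes at that threshold was not computed. With the replicate number as a block 6 genes were called, 3 higher and 3 lower, and the share of all genes was not computed for this fit. Added were Scn3b (1.13 ± 0.18, adjusted p = 0.0015, against 1.13 ± 0.34 and 0.076 without), Cacng6 (0.78 ± 0.14, 0.0034, against 0.075), Cacna2d4 (0.70 ± 0.16, 0.012, against 0.11) and Cacng7 (-0.53 ± 0.12, 0.014, against 0.57). The count was 1 without Dox replicate 2 or 3 or any of the 3 Dox+RA arrays of day 8, and 5 without Dox replicate 3 of day 12, which enters only the shared spread.

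At day 12, 6 of the 36 genes were higher and 1 lower at an unadjusted p under 0.05, again with no share of all genes computed. With adjustment in limma 0 of the 36 were called, against 0.383% of all genes higher and 0.541% lower. The count was 1 without control EB replicate 1 or 2, Dox replicate 1 or Dox+RA replicate 3 of day 12. With the block 3 were called, all higher with RA: Cacna1g (0.68 ± 0.16, adjusted p = 0.036, against 0.06 without), Cacna2d4 (0.66 ± 0.16, 0.038, against 0.25) and Cacng6 (0.59 ± 0.14, 0.041, against 0.32). That blocked count too has no share of all genes beside it. Cacna1d differed by 0.48 ± 0.22 with RA at day 8 (adjusted p = 0.25; 95% interval 0.01 to 0.94) and by 0.04 ± 0.22 at day 12 (0.96; -0.43 to 0.51). The difference between the RA effects of the 2 days was called for 0 of the 36 genes, against 0.00902% of all genes. That count stayed at 0 under all 25 alternatives. At an unadjusted p under 0.05, 3 genes were higher, also with no share of all genes computed. The effect on Scn7a was -1.80 at day 8 and -0.76 ± 0.27 (adjusted p = 0.24) at day 12, and the difference between them was 1.04 ± 0.38 (adjusted p = 0.77).

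**Figure D5:**
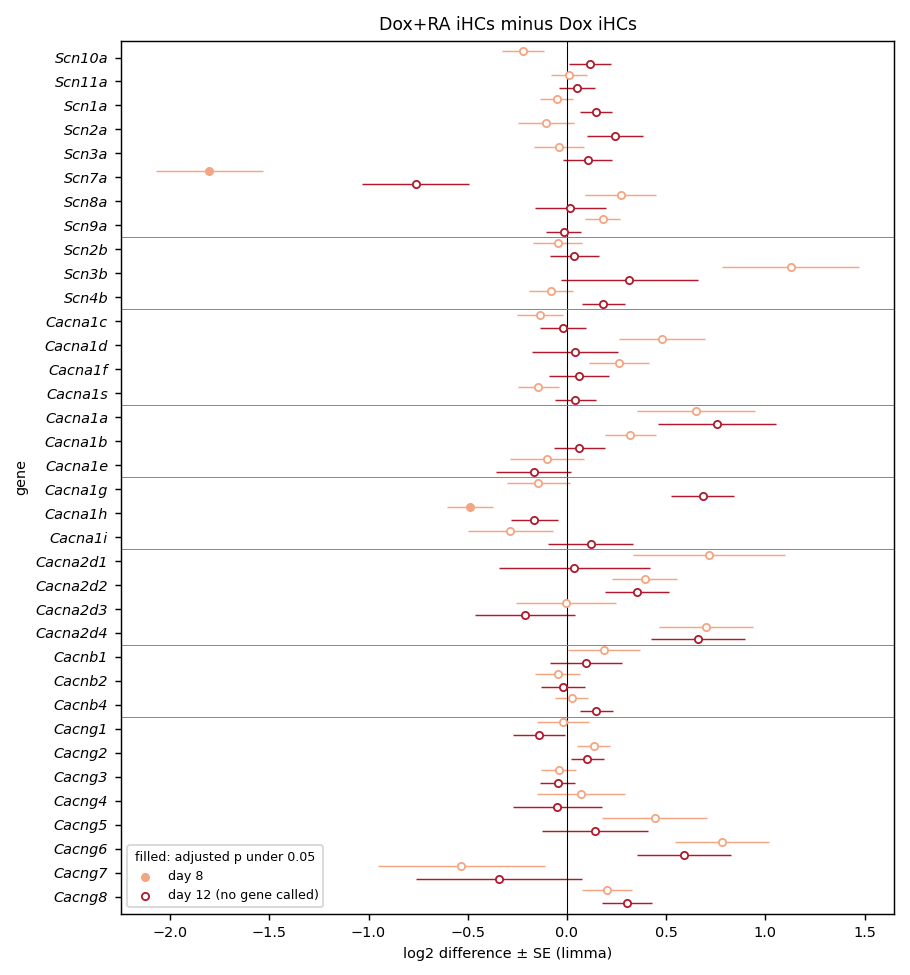
Log2 difference of Dox+RA iHCs from Dox iHCs (x axis, with limma's standard error) for the 36 channel genes at day 8 and day 12; filled points were called at an adjusted p under 0.05. Scn7a at -1.80 and Cacna1h at -0.49 at day 8 are the filled points.

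Genes of proteins that work with these channels were followed as lists. Of 18 partners of calcium channels at release sites or on the channel, 9 rose in each Dox comparison and 8 in each Dox+RA comparison. Of all genes 15.7% and 19.2% were called higher with Dox and 19.6% and 22.4% with Dox+RA. The numbers of partners that fell are not given. Rimbp2, which ties calcium channels to the release machinery, rose by 4.65 ± 0.18, 5.13 ± 0.18, 4.64 ± 0.18 and 4.98 ± 0.18 (adjusted p of 1.3e-10 to 4.2e-11 in Dox iHCs). Cabp2, which limits inactivation of CaV1.3 in hair cells, rose by 3.10 to 4.15, and Cabp1 of the same family by 0.80 to 2.25. Erc2 and Bsn of the active zone rose by 2.17 to 3.37 and by 0.63 to 1.61, and Rims3 by 0.65 to 1.36. Among small GTPases that inhibit calcium channels, Rem2 rose by 2.38 to 3.62 and Gem fell in Dox+RA iHCs (-1.0 and -1.22). Rims1 (-0.18 to 0.12) and Rims2 (-0.15 to 0.26), scaffolds of release sites, and Cabp4 (0.03 to 0.20), the photoreceptor relative of Cabp2, were not called.

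Of 15 partners of sodium channels and the leak channel, 8, 7, 9 and 9 rose, against 15.7%, 19.2%, 19.6% and 22.4% of all genes. Nfasc and Nrcam, adhesion proteins of nodes and initial segments, rose by 3.71 to 4.12 and 2.44 to 3.05. The sodium leak channel Nalcn rose by 1.66 to 3.77 together with genes of its subunits Unc79 (0.84 to 2.96), Unc80 (2.86 to 4.10) and Fam155a (1.09 to 2.64). Fgf11, an intracellular factor that binds sodium channels, rose by 2.51 to 3.03. Its relative Fgf12 read 4.72, 4.81 and 4.62 in Dox iHCs of day 8, against 5.21 and 4.79 in control EBs of that day. In the same groups Fgf13 read 5.06, 5.19 and 5.28 against 4.78 and 5.07, and Fgf14 4.9, 5.7 and 5.5 against 4.6 and 4.2. Dox+RA iHCs of day 8 read 5.13, 6.36 and 6.42 for Fgf14, 5.40, 5.57 and 5.63 for Fgf13 and 5.17, 4.99 and 4.95 for Fgf12. At day 12 Fgf14 read 4.80, 5.08 and 4.72 with Dox and 5.16, 6.02 and 5.83 with Dox+RA, against 4.19 and 4.17. Each iHC array of Fgf14 was above the control EBs of its day. Calls of these relatives are not given here, though the counts include them. Nedd4l, a ubiquitin ligase of sodium channels, fell in Dox+RA iHCs of day 12 (-1.18 ± 0.26, adjusted p = 0.0018). The scaffold genes of the initial segment Ank3 (-0.32 to -0.13) and Sptbn4 (-0.05 to 0.03) were not called.

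Of 5 genes for channels that release calcium from internal stores, 1 rose and 3 fell in each comparison. Of all genes 15.7% to 22.4% were called higher and 18.9% to 22.4% lower, so the count that rose is near the background. Ryr1 rose by 1.57 to 2.80, and Itpr2 (-1.34 to -0.80), Itpr3 (-0.93 to -0.70) and Ryr2 (-1.27 to -0.63) fell. Of 6 AMPA receptor genes, which the Cacng products serve, the auxiliary subunits Cnih2 and Cnih3 rose, by 1.65 to 2.28 and 1.43 to 3.15. The pore subunit Gria3 fell by 3.04 ± 0.23 and 4.22 ± 0.23 in Dox iHCs and by 3.43 ± 0.23 and 4.23 ± 0.23 in Dox+RA iHCs. Gria1 and Gria4 were not called at day 8 and fell at day 12, Gria1 by 2.63 and 2.66 and Gria4 by 1.29 and 1.46. Gria2 rose in Dox iHCs of day 12 (1.0 ± 0.38, adjusted p = 0.046).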

How the data were processed

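Log2 RMA values were deposited by the authors; the submitters' processing notes name Affymetrix Expression Console and RMA without versions. RMA corrects background, normalizes between arrays and summarises probes, which compresses differences at low signal. Values were used as deposited and ran from 1.44 to 12.3. Probe names came from the platform annotation: of 33708 entries, 23521 had 1 symbol, 1814 several and 8373 none, and 22180 genes were tested. All 36 channel genes matched RefSeq by Entrez ID.

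Each of the 6 groups had a mean in limma 3.58.1 (R 4.3.3; lmFit, contrasts.fit, eBayes), with 9 differences and 3 interactions and p-values adjusted over all genes; the procedure was tested on simulated data. The labels call the samples biological replicates with independent RNA, and p-values measure the spread between these samples. The number of arrays limits the precision. Strip and scan batch: not given in the sources used here.

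iHC arrays of equal replicate number deviated together (r of 0.147 to 0.513 in all 18 pairs, against 0.026 to 0.179 with control EBs), so blocked values stand beside results whose call or count they change; the pairing comes from this check and the labels' numbers. Array values are given for Cacna1d, for members called with a difference of at least 1 from control EBs or over time in iHCs, and for those called in an RA comparison; up to 6 partners per list called with a difference of at least 1 were named, plus uncalled partners as values, and Gem and Nedd4l, which were chosen after their values were seen because they fell. Fgf12, Fgf13 and Fgf14 were added as relatives of Fgf11, with values and without their calls. The members and lists were chosen with earlier results of these data known. The alternatives were median centring, quantile normalization, a minimum level of 5, averaged entries, trend and robust eBayes, array weights, only the compared groups, both replicate blocks and leaving out each array; where that leaves a control group with 1 array, it is assumed to vary like the other groups. Figures used Python 3.11.15, pandas 2.3.3 and matplotlib 3.10.9. Some genes of these families are not reported here.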

Additional observations from a re-analysis of the deposited data

Results flagged for a closer look

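The change from day 8 to day 12 differed between Dox iHCs and control EBs, by the interaction in limma, for Cacna1g (-1.78 ± 0.25, adjusted p = 0.0013), Cacna1h (-0.88 ± 0.19, adjusted p = 0.019) and Cacna2d2 (1.07 ± 0.26, adjusted p = 0.038). Between Dox+RA iHCs and control EBs it differed for Cacna1i (1.44 ± 0.34, adjusted p = 0.035) and Cacna2d2 (1.03 ± 0.26, adjusted p = 0.046). Of 25 alternatives, Cacna2d2 lost its call under 12 (Dox) and 14 (Dox+RA), Cacna1i under 8 and Cacna1h under 3. The call of Cacna1g was kept under all. Without control EB replicate 2 of day 8 the values of Cacna2d2 were 0.68 (Dox) and 0.64 (Dox+RA).

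Cacnb4 has a second entry on the array, not used in the comparisons because its mean signal was lower. That entry was called higher than in control EBs in all iHC groups but Dox iHCs of day 12. It differed by 0.43 in Dox iHCs of day 8 (adjusted p = 0.018), and by 0.40 (adjusted p = 0.023) and 0.42 (adjusted p = 0.016) in Dox+RA iHCs of day 8 and day 12. In Dox iHCs of day 12 the difference was 0.32 (adjusted p = 0.065). These p-values from limma were adjusted over all 33708 entries. The entry used for Cacnb4 was not called in any of these comparisons, and the second one ran from 3.01 to 3.90 over the arrays, a low signal.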

How the results depend on the processing

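Of 2769 values recomputed for 111 gene results under 25 alternatives, 2551 kept direction and side of the threshold, 199 lost the call, 12 gained one and 7 changed sign, and 67 results kept both under every alternative. All 7 reversals were of Cacna1d where it was not called. Leaving out 1 array, Dox iHCs minus control EBs at day 8 ran from -0.457 (without control EB replicate 1) to 0.632 and was -0.022 without Dox replicate 2. RA at day 12 ran from -0.131 (without Dox replicate 3) to 0.20, and gave -0.001 with median centring and -0.017 with array weights. Control EBs over time ran from -0.162 (without replicate 1 of day 8) to 0.926, and the Dox+RA interaction from -0.188 (without replicate 2 of day 8) to 0.90. Counts of called channel genes, leaving out 1 array, ran from 14 to 17 (Dox, day 8), 17 to 24 (Dox, day 12), 15 to 19 (Dox+RA, day 8), 17 to 25 (Dox+RA, day 12), 1 to 5 (RA, day 8), 0 to 1 (RA, day 12), 3 to 10 (Dox over time), 1 to 5 (Dox+RA over time), 1 to 4 (control EBs over time), 1 to 6 (Dox interaction) and 0 to 2 (Dox+RA interaction). The 4 counts against control EBs stayed within 1.5 times of their main value under all 25. Shares of all genes were computed for the main fit only, so counts under the alternatives have no background beside them. With the replicate block the counts were 6 (RA, day 8), 3 (RA, day 12), 6 (Dox+RA over time), 6 (Dox interaction) and 4 (Dox+RA interaction); with it as a random effect 5, 1, 5 and 5 for the first 4 of these. Array weights gave 5 (RA, day 8), 1 (RA, day 12), 7 (Dox+RA over time) and 5 (Dox interaction). Fits on only the compared groups, with fewer arrays, gave 3 (Dox over time), 6 (Dox+RA over time), 1 (Dox interaction) and 1 (Dox+RA interaction). Median centring gave 1 (control EBs over time) and 1 (Dox+RA interaction). Other causes were not tested. Beyond the values in the report, the block changed no other call of the 36 genes.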
